A study of Mus musculus with 6 samples.

Results

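Retinoic acid synthesis and response was followed through 9 genes that were picked by symbol, namely Stra6, Rdh10, Dhrs3, Aldh1a1, Aldh1a2, Aldh1a3, Crabp2, Cyp26b1 and Rarb. All 9 were found among the 34745 genes of the deposited table, and 8 had enough reads to be tested. The RNA came from prostate tissue of male C57BL/6 mice that entered the study as young adults. Which lobes were taken is not stated in the sources used here, and their part in the differences was not tested. The T + E2 group (3 mice) carried 1 subcutaneous pellet of testosterone with a smaller part of estradiol, renewed monthly over 12 weeks, and the CON group (3 mice) had the skin incision alone. No mouse carried an engineered allele, and each library came from 1 mouse. The comparison asks which genes differ in the hyperplastic prostate that this hormone excess produces.

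Retinoic acid is made from vitamin A. The receptor STRA6 brings retinol into cells, RDH10 oxidises it to retinal, DHRS3 turns retinal back to retinol, and the retinal dehydrogenases ALDH1A1, ALDH1A2 and ALDH1A3 oxidise retinal to retinoic acid. CRABP2 carries the acid to the nuclear receptors RAR and RXR, and CYP26 enzymes such as CYP26B1 break it down. In the urogenital tract this signal is known for its part in the outgrowth and differentiation of the prostate epithelium, and Rarb, Dhrs3 and Cyp26 genes are textbook targets that retinoic acid itself induces.

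Libraries held 14816146 to 16555549 reads on genes, and 3 counts, taken as the detection limit, were worth 0.183 to 0.208 CPM (counts relative to the library total, scaled by TMM). This limit covers counting error only. Transcripts of prostate secretions were abundant in both groups, with Pbsn at 14177 ± 2217 CPM in the CON and 1445 ± 269 CPM in the T + E2 group. Tgm4 stood at 23479 ± 4298 and 3129 ± 907 CPM and Msmb at 3058 ± 493 and 6566 ± 425 CPM (SD, n = 3 each). The prostate secretion list of 4 genes summed to 35222 to 48691 CPM in CON mice and was lower in T + E2 mice, at 10849 to 13593 CPM. CON replicate 2 stood apart with 10325 CPM of 8 seminal vesicle genes, followed by T + E2 replicate 2 with 643 CPM, while the other 4 mice had 0.629 to 4.11 CPM. The 3 called members are therefore also given without each of these mice.

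Aldh1a2 rose 21.4-fold and Stra6 fell 4.62-fold with T + E2, while Aldh1a1, by far the most abundant of the 9 genes, rose 1.52-fold (ratios of mean CPM, n = 3 in each group). These 3 genes, out of 8 tested, had an adjusted p under 0.05 in edgeR's quasi-likelihood test, where 19.6% of all tested genes did. Aldh1a2 and Stra6 were also DEGs, with an absolute log2 fold change over 1, a class that held 7.64% of all tested genes (4.27% higher and 3.38% lower with T + E2). In CPM the same 3 genes were the ones whose groups did not overlap, against 40.7% of all tested genes, and in FPKM the groups of Rdh10 were separate as well. The median log2 fold change was 0.16 over the 8 tested genes and -0.002 over all tested genes. In RNA from tissue, a change in the number of expressing cells and a change in RNA per cell cannot be told apart.

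Compared per length, as FPKM, the 9 genes covered a wide range of levels. In the CON group Aldh1a1 stood at 124 ± 14.1 FPKM (SD, n = 3), followed by Dhrs3 at 10.8 ± 0.368 FPKM. Aldh1a2 (4.12 ± 0.760), Stra6 (3.37 ± 0.164), Aldh1a3 (3.35 ± 0.977) and Rdh10 (2.79 ± 0.219 FPKM) came next, and each overlapped its neighbour in this order. Cyp26b1 (0.826 ± 0.455 FPKM), the only CYP26 gene with more than 4 counts in any mouse, and the receptor gene Rarb (1.015 ± 0.189 FPKM) overlapped as well, and Crabp2 was lowest at 0.203 ± 0.137 FPKM.

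In the T + E2 group the order of the means differed. Aldh1a1 was again first at 184 ± 14.9 FPKM, and Aldh1a2 moved up to second place at 85.9 ± 10.1 FPKM, above Dhrs3 at 12.8 ± 2.61 FPKM (SD, n = 3 each). Stra6 dropped to 0.713 ± 0.228 FPKM, a level that overlapped that of Rarb at 0.780 ± 0.392 FPKM. Cyp26b1 had a higher mean than Rarb here, at 1.89 ± 1.13 FPKM, but the ranges of these genes overlapped in both groups.

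**Figure D1:**
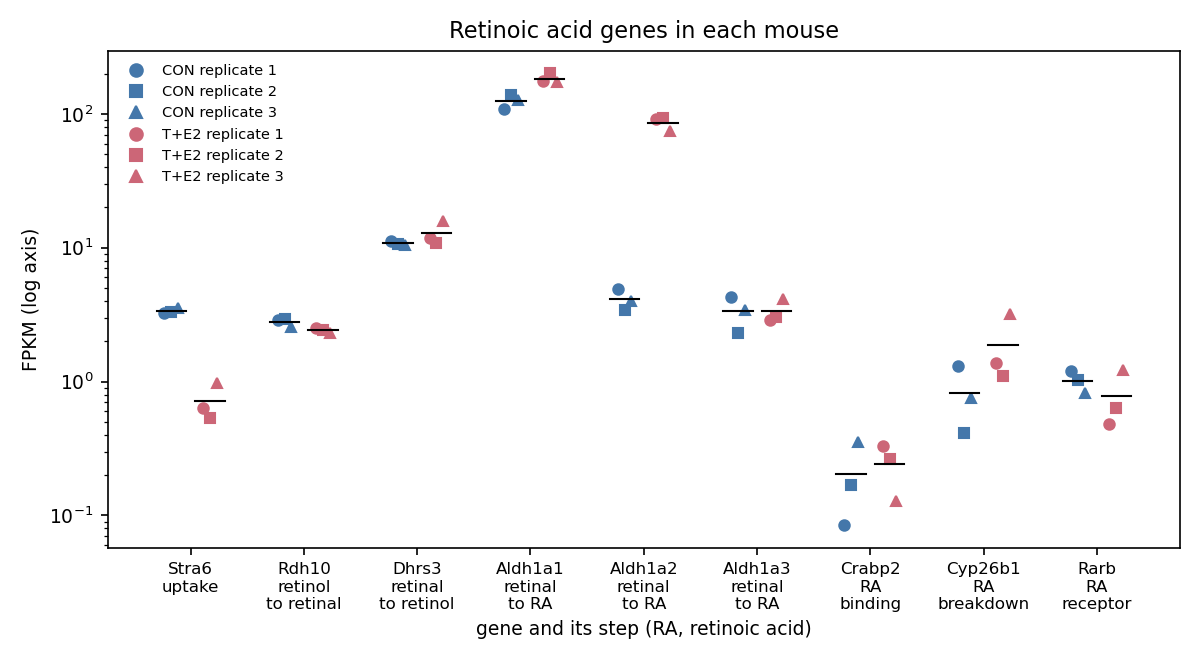
FPKM of the 9 genes in each mouse on a log axis, with CON mice in blue, T + E2 mice in red, a symbol for each replicate number and a line at each group mean. Aldh1a2 moves from 3.45 to 4.95 FPKM in CON mice to 74.3 to 92.3 FPKM in T + E2 mice, Stra6 moves from 3.26 to 3.56 down to 0.530 to 0.969 FPKM, and the groups of Dhrs3, Aldh1a3, Crabp2, Cyp26b1 and Rarb overlap.

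Stra6 encodes the cell-surface receptor that takes up retinol from its plasma carrier RBP4. In the table it lies on chromosome 9 of GRCm38 (58063788 to 58153996, plus strand). The CON mice had 28.1, 28.1 and 31.4 CPM and the T + E2 mice 5.88, 4.69 and 8.41 CPM. Every CON mouse was thus more than 3 times above every T + E2 mouse. The log2 fold change was -2.21 (standard error 0.20, adjusted p = 0.000298 by edgeR), and 106 of the 15580 tested genes had a more negative one. It was -2.24 without CON replicate 2 and -2.03 without T + E2 replicate 2 (adjusted p = 0.00107 and 0.0013 by edgeR). The gene model of Stra6 overlaps that of Ccdc33 on the other strand over 55036 bases, and Ccdc33 had 0 to 5 counts in these mice.

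The rest of the uptake, transport and storage list held 13 genes, of which 9 were tested and 1 was called (11.1%, against 19.6% of all tested genes). Rbp4 had 4.99 CPM in CON replicate 2 and 1 to 1.57 CPM in the other 5 mice, and its log2 fold change of -1.03 did not pass (adjusted p = 0.237 by edgeR). Lrat, which esterifies retinol for storage, had 0.728, 0.131 and 0.503 CPM in CON mice, against 1.11, 1.28 and 2.4 CPM in T + E2 mice. Its groups did not overlap, but its adjusted p was 0.0538 by edgeR. Lrat would not have passed the filter for low counts without the T + E2 mice, so its direction was partly tied to the filter. Stra6l, a relative of Stra6, had 10, 11 and 10 counts in the CON mice against 1, 0 and 4 and was too low to be tested. Without T + E2 replicate 3, the T + E2 mouse with the most counts, it passed the filter and was called lower (adjusted p = 0.0196 by edgeR). Stra6l passed there only through the CON mice, so the direction of that call was tied to the filter.

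Bco1, which cleaves beta-carotene to retinal, was the called gene of that list. It rose from 0.411 ± 0.201 CPM in CON to 1.55 ± 0.515 CPM in T + E2 mice (SD, n = 3 each). This gave a log2 fold change equal to 1.90 (standard error 0.45, adjusted p = 0.023 by edgeR). These are 3 to 9 counts in CON mice, against 14 to 32 in T + E2 mice. Bco1 thus passed the filter for low counts only through the T + E2 mice, and its direction was tied to the filter. The call was lost without CON replicate 2, CON replicate 3, T + E2 replicate 2 or T + E2 replicate 3, with adjusted p-values of 0.0669, 0.0726, 0.085 and 0.0625 by edgeR.

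Rdh10 (chromosome 1, 16105774 to 16133734, plus strand) encodes the main enzyme that oxidises retinol to retinal, the first and rate-limiting step. It had 15.7, 16 and 14.2 CPM in CON mice, against 14.6, 13.6 and 12.7 CPM in T + E2 mice. In CPM the highest T + E2 mouse lay above the lowest CON mouse, whereas in FPKM, which is scaled to library totals without TMM, the groups did not overlap (2.54 to 2.95 in the CON and 2.32 to 2.51 in the T + E2 group). The log2 fold change was -0.16 (standard error 0.12, adjusted p = 0.358 by edgeR).

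Dhrs3 (chromosome 4, 144892827 to 144928209, plus strand) encodes the reductase that works against RDH10. Its CON mice were close together at 67.2, 63.9 and 64.6 CPM. The T + E2 mice had 75.8, 66.7 and 95.4 CPM, so that T + E2 replicate 3 stood above the other 5 mice and T + E2 replicate 2 lay within the CON range. Its log2 fold change was 0.28 (standard error 0.13, adjusted p = 0.178 by edgeR).

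The ratio of Rdh10 to Dhrs3 within a library, in FPKM, does not depend on the scaling between libraries. It was 0.258, 0.277 and 0.243 in CON mice, against 0.213, 0.226 and 0.148 in T + E2 mice. Every T + E2 ratio lay below every CON ratio (exact two-sided permutation test, p = 0.1, the smallest p that 3 against 3 mice can give).

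Among the other retinol and retinal oxidoreductases, 12 of 21 genes were tested and 5 were called. Of these, 4 were higher and 1 lower with T + E2, beside 10.4% of all tested genes called higher and 9.25% called lower. Of the higher ones, Rdh16, Adh7 and Hsd17b6 passed the filter for low counts only through the T + E2 mice. Their direction was thus tied to the filter. Adh1, an abundant alcohol dehydrogenase that also oxidises retinol, had 303, 295 and 319 CPM in CON mice, against 692, 726 and 622 CPM in T + E2 mice. Its log2 fold change was 1.15 (standard error 0.10, adjusted p = 0.000233 by edgeR). Per length it stood at 113 FPKM in the CON and 245 FPKM in the T + E2 group, a level of the same order as that of Aldh1a1. Dhrs4, a reductase that accepts retinal, fell by 0.41 on the log2 scale (adjusted p = 0.0294 by edgeR). That call was lost without any 1 of the mice except CON replicate 1, with adjusted p-values of 0.0555 to 0.0898 by edgeR.

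Sdr16c6 and Rdh7, of the same enzyme family, were too low for the filter, with 0 counts in each CON mouse against 5, 16 and 5 for Sdr16c6, and 0, 1 and 0 against 9, 3 and 6 for Rdh7. Without the filter both were called higher (adjusted p = 0.0177 and 0.0447 by edgeR).

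The remaining calls among the oxidoreductases came from genes with few reads. Rdh16, a retinol dehydrogenase, rose from 5, 10 and 4 counts in the CON mice to 41, 45 and 43 in the T + E2 mice (log2 fold change 2.75, standard error 0.36, adjusted p = 0.0017 by edgeR). Hsd17b6, a related enzyme that acts on both retinol and steroids, had 0 counts in each CON mouse and 24, 27 and 12 in the T + E2 mice, and was at least 7.02-fold higher when 3 counts are set for each CON library (adjusted p = 0.00345 by edgeR). These transcripts resemble their relatives, since Rdh16 is 94.1% identical to Rdh9 over 1892 aligned bases and Hsd17b6 is 92.3% identical to Rdh16 over 325, so reads could have been shared. Adh7, the retinol-active class of alcohol dehydrogenase, had 2 to 9 counts in CON mice, against 15 to 41 in T + E2 mice (log2 fold change 2.16, adjusted p = 0.0257 by edgeR). Its call was lost without CON replicate 2, CON replicate 3, T + E2 replicate 2 or T + E2 replicate 3 (adjusted p = 0.0662, 0.0827, 0.0937 and 0.0523 by edgeR).

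The 3 retinal dehydrogenases, which carry out the last and irreversible step, differed from each other in their response. Aldh1a2 (chromosome 9 of GRCm38, 71215789 to 71296243, plus strand), known as the main retinoic acid source of the embryo and of mesenchymal tissues, had 11, 7.62 and 9.05 CPM in the CON mice. In the T + E2 mice it had 216, 211 and 166 CPM. The lowest T + E2 mouse lay far above the highest CON mouse. For Aldh1a2 the log2 fold change was 4.42 (standard error 0.18, adjusted p = 7.68e-06 by edgeR), and 63 of the 15580 tested genes had a larger one. The rise rested on 116 to 166 reads in CON mice, against 2493 to 3461 in T + E2 mice, and the log2 fold change was 4.30 without CON replicate 2 and 4.37 without T + E2 replicate 2 (adjusted p = 2.94e-05 and 9.56e-05 by edgeR).

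Aldh1a1 (chromosome 19, 20601961 to 20643462, plus strand), a dehydrogenase of many epithelia, had 220, 275 and 261 CPM in CON mice, against 378, 415 and 353 CPM in T + E2 mice. The groups were separate, but the difference was under the 2-fold limit. The log2 fold change was 0.60 (standard error 0.12, adjusted p = 0.00984 by edgeR). Without CON replicate 2 and without T + E2 replicate 2 it was 0.66 and 0.54 (adjusted p = 0.0157 and 0.0341 by edgeR). Aldh1a7, a close paralog on the same chromosome whose transcript is 89.1% identical over 2072 aligned bases, had 77.3 ± 19.1 CPM in the CON and 94.1 ± 9.55 CPM in the T + E2 group (SD, n = 3 each) and was not called (adjusted p = 0.28 by edgeR), except without CON replicate 2 (log2 fold change 0.50, adjusted p = 0.0403). Some reads of this pair could have been shared.

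Aldh1a3 (chromosome 7, 66390892 to 66427517, minus strand), the remaining retinal dehydrogenase, had 22.8, 12.4 and 19 CPM in CON mice, against 16.6, 16.7 and 22.2 CPM in T + E2 mice. The groups overlapped fully. The log2 fold change was 0.04 (standard error 0.23, adjusted p = 0.928 by edgeR), and its sign changed to -0.18 without CON replicate 2 and to -0.12 without T + E2 replicate 3.

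The make-up of the retinal dehydrogenase pool shifted accordingly. Aldh1a2 held 4.17%, 2.41% and 2.97% of the summed FPKM of Aldh1a1, Aldh1a2 and Aldh1a3 in the CON mice. In the T + E2 mice it held 33.7%, 31.2% and 29.4%. The share of Aldh1a1 was 94.2 ± 1.88% in the CON and 67.3 ± 1.92% in the T + E2 group, and that of Aldh1a3 was 2.60 ± 0.988% and 1.24 ± 0.335% (SD, n = 3 each). For Aldh1a1 and Aldh1a2 the groups did not overlap (exact two-sided permutation tests, p = 0.1, the smallest possible), whereas for Aldh1a3 they did (p = 0.2 in the same exact test). These shares rest on the same values as the calls above and are no further support for them. The summed FPKM of the 3 genes rose from 132 ± 12.4 to 273 ± 22 (SD, n = 3 each), with the same smallest possible p of 0.1 in the exact permutation test. With Aldh1a7 added to the sum, the share of Aldh1a1 differed by -15.5 percentage points between the groups in place of -26.9.

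**Figure D2:**
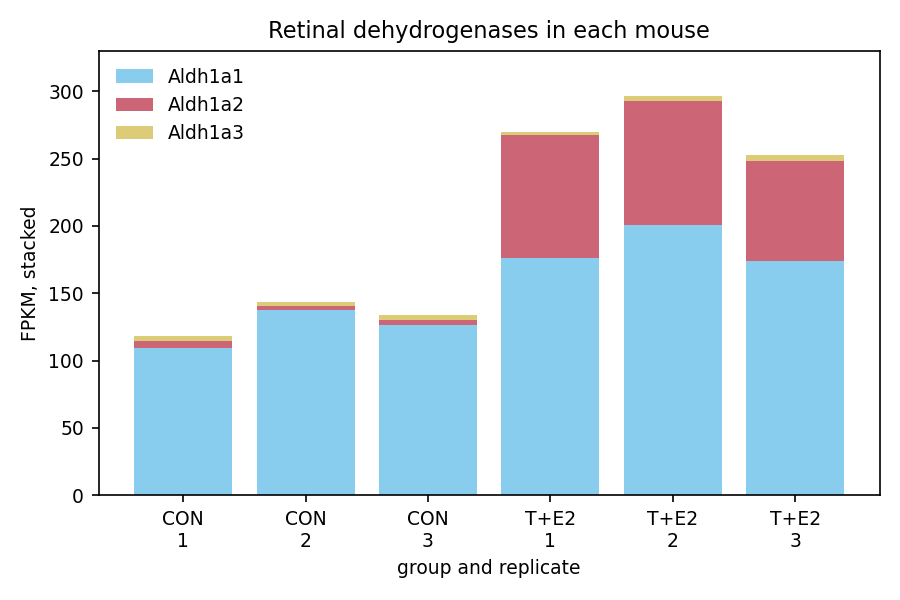
Stacked FPKM of Aldh1a1, Aldh1a2 and Aldh1a3 in each of the 6 mice on a linear axis from 0. The summed bars reach 119 to 143 FPKM in CON mice and 252 to 296 FPKM in T + E2 mice, and the Aldh1a2 part grows from at most 4.95 to at least 74.3 FPKM.

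Aldh1a1 and Aldh1a2 also differ in the sequence before their starts. The 250 bases upstream of a RefSeq start of each (GRCm38.p6, plus strand) are shown with every CG dinucleotide in capitals. For Aldh1a1 the window near its start in the deposited table was used. The pair was picked after the fold changes were seen, Aldh1a3 had no window, and a part of CG content in the responses was not tested. The Aldh1a2 stretch at chr9:71215539-71215788 holds 40 of them, more than 98.7% of all RefSeq promoter windows, and the Aldh1a1 stretch at chr19:20601718-20601967 holds 1, where the median window holds 6.
Aldh1a2: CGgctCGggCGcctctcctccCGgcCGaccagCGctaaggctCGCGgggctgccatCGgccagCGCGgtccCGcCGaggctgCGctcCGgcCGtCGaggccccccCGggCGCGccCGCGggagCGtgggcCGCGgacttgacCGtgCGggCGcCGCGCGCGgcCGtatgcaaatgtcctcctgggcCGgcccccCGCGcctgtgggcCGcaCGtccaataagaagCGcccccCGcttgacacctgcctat
Aldh1a1: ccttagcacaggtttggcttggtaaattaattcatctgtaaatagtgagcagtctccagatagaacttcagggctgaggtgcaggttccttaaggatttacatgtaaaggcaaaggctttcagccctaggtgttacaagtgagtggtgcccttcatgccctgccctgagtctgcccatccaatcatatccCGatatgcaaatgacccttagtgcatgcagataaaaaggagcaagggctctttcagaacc

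Crabp2, which passes retinoic acid to the receptors, was barely expressed. Its counts were 2, 4 and 9 in CON mice, against 8, 7 and 3 in T + E2 mice (chromosome 3, 87948666 to 87953376, plus strand). These values fell under the filter for low counts, so no test was made, and the depth does not allow a difference of this size to be seen.

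The other carriers of retinoic acid were expressed at far higher levels, and both were called, in opposite directions. Crabp1, a paralog that is linked to the breakdown of the acid, had 45, 71 and 47.4 CPM in CON mice, against 35, 31.3 and 31.8 CPM in T + E2 mice (log2 fold change -0.74, standard error 0.17, adjusted p = 0.0224 by edgeR). The call was lost without T + E2 replicate 2 or T + E2 replicate 3 (adjusted p = 0.0809 and 0.0632 by edgeR). CON replicate 2, the mouse with the seminal vesicle transcripts, was the highest, and without it the log2 fold change was -0.50 (adjusted p = 0.0243 by edgeR). Fabp5, a fatty acid carrier that also delivers retinoic acid to PPAR-type receptors, had 23.9, 24.7 and 30.2 CPM in CON mice, against 93.4, 93.3 and 56.1 CPM in T + E2 mice (log2 fold change 1.62, standard error 0.21, adjusted p = 0.00148 by edgeR). Its transcript is 94.1% identical to that of Fabp5l2 over 405 aligned bases. The FPKM ratio of Fabp5 to Crabp1 was 0.096 ± 0.0279 in the CON and 0.469 ± 0.12 in the T + E2 group (SD, n = 3 each). Each gene alone had separate groups in FPKM, in opposite directions. The ratio therefore had to separate as well and is no further support.

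Cyp26b1 (chromosome 6, 84571414 to 84593908, minus strand) encodes the enzyme that clears retinoic acid in many tissues. It had 11.7, 3.68 and 6.85 CPM in CON mice, against 13.1, 10.1 and 28.6 CPM in T + E2 mice. The spread within each group was about as large as the difference, since the highest CON mouse lay above the lowest T + E2 mouse. The log2 fold change of 1.22 had a standard error of 0.48 and did not pass (adjusted p = 0.115 by edgeR). Without T + E2 replicate 3 it was 0.64 and without CON replicate 1 it was 1.71 (adjusted p = 0.338 and 0.061 by edgeR). Leaving out single mice moved this value over a wider range than that of any other tested member. Cyp26a1 had 0 to 4 counts and Cyp26c1 had 0 counts in every mouse.

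Rarb, a receptor gene that retinoic acid is known to induce, lies on chromosome 14 (16430842 to 16575472, minus strand). It had 3.58, 3.02 and 2.51 CPM in CON mice, against 1.52, 1.95 and 3.67 CPM in T + E2 mice. T + E2 replicate 3 was the highest of all 6 mice and the other T + E2 mice were the lowest. Its log2 fold change was -0.35 (standard error 0.35, adjusted p = 0.515 by edgeR) and reached -0.80 without T + E2 replicate 3 (adjusted p = 0.106 by edgeR). The counts were only 22 to 55 per mouse. Rarb overlaps Top2b, which had 1392 to 1981 counts, on the other strand over 4624 bases. Transcripts of the 2 genes hold a stretch of 1433 bases that is 100% identical. The sources used here do not say whether counting used the strand, so some Rarb counts could be reads of Top2b.

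The promoter of Rarb holds the classic retinoic acid response element, a direct repeat of the hexamer AGGTCA or a close variant with a spacer of 5 bases (DR5). It is printed here as the sequence through which Rarb is known to respond, beside that of Cyp26a1, the other gene followed here with such a repeat. Each stretch is the 250 bases upstream of the RefSeq start (GRCm38.p6), for Rarb at chr14:16575477-16575726 on the minus strand and for Cyp26a1 at chr19:37697558-37697807 on the plus strand, with the repeat in capitals.
Rarb: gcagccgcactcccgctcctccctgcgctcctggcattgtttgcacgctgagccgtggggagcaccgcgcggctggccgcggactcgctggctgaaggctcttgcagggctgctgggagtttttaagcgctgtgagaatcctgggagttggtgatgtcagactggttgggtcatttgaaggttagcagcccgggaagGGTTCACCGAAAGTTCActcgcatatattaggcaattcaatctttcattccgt
Cyp26a1: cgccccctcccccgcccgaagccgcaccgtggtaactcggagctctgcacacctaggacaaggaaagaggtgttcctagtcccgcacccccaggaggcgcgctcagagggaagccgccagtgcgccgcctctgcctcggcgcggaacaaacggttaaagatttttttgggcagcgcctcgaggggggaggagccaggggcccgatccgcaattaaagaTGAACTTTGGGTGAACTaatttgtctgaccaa

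The repeat of Rarb lies 53 to 37 bases before the start, and that of Cyp26a1 reads on the opposite strand, 32 to 16 bases before the start. Both hexamers were allowed to have A or G at the first and G or T at the third base, on either strand. Of the 32851 RefSeq windows of 300 bases, 32 (0.0974%) held such a DR5 repeat. Windows were found for 6 of the 9 genes, namely Aldh1a1, Aldh1a2, Cyp26b1, Dhrs3, Rarb and Stra6, and among their 12 windows 1 held a DR5 repeat, 0 a repeat with a spacer of 1 base (DR1, 0.222% of all windows) and 0 one with a spacer of 2 bases (DR2, 0.268%). Searches added later for an oestrogen response element (GGTCA and TGACC spaced by 3 bases, in 0.07% of all windows) and an androgen response element (AGAACA and TGTTCT spaced by 3 bases, in 0.00913%) found neither in the 12 windows. Bco1 held a DR1 repeat 56 to 44 bases before its start. A match describes the letters in these windows and is not evidence of binding.

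The other receptors were expressed above Rarb and most changed little. Rara stood at 26.3 ± 2.72 CPM in the CON and 28 ± 3.55 CPM in the T + E2 group, and Rarg at 54.8 ± 0.746 and 56.1 ± 11.3 CPM (SD, n = 3 each), with adjusted p-values of 0.661 and 0.886 by edgeR. Summed over Rara, Rarb and Rarg, the FPKM was 15.5 ± 0.987 in the CON and 15.5 ± 3.16 in the T + E2 group. Of the RXR partners, Rxra had a log2 fold change of -0.27 and Rxrb one of -0.09 (adjusted p = 0.0934 and 0.598 by edgeR). Rxrg, the RXR gene with the narrowest tissue range, had 12.1, 15.1 and 14.1 CPM in CON mice, against 5.67, 6.51 and 4.14 CPM in T + E2 mice. This was a DEG (log2 fold change -1.33, standard error 0.19, adjusted p = 0.00275 by edgeR). The share of Rxrg in the summed RXR FPKM was 19.2 ± 1.31% in the CON and 9.76 ± 2.76% in the T + E2 group (SD, n = 3 each). This share rests on the same Rxrg values and is no further support for the call.

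Of the 11 receptor and cofactor genes, all tested, 2 were called (18.2%, against 19.6% of all tested genes). Besides Rxrg this was Nrip1, a corepressor that retinoic acid and oestrogen are both known to induce, which had 131, 120 and 82 CPM in CON mice, against 180, 202 and 211 CPM in T + E2 mice (log2 fold change 0.83, standard error 0.17, adjusted p = 0.0121 by edgeR).

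**Figure D3:**
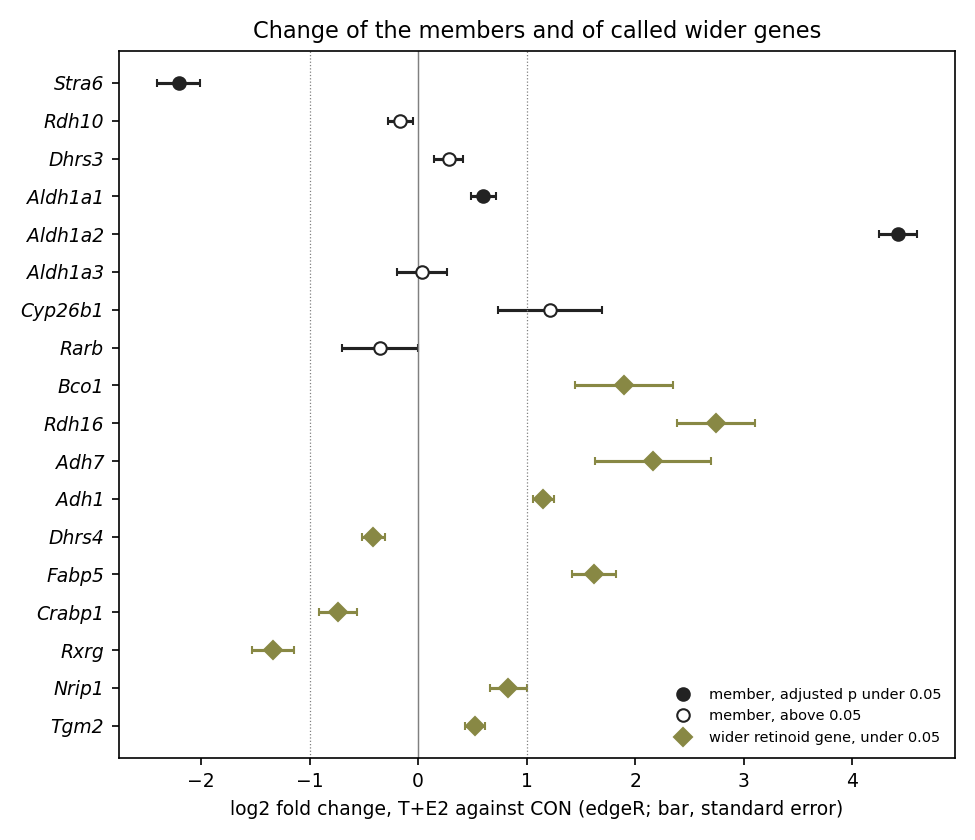
Log2 fold change of T + E2 against CON with its standard error from edgeR for the 8 tested members (circles, filled where the adjusted p was under 0.05) and for 10 of the 11 called genes of the wider lists (diamonds). Hsd17b6, with 0 counts in the CON mice, is left out because its fold has only a lower bound, and dotted lines mark a log2 fold change of 1 in either direction. Aldh1a2 at 4.42 and Stra6 at -2.21 lie outside all other members.

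Further genes known to respond to retinoic acid formed a list of 15, of which 9 had enough reads and 1 was called (11.1%, against 19.6% of all tested genes). Rarb, Dhrs3, the Cyp26 genes and Nrip1, described above as induced by retinoic acid, were not in this list. The share is therefore not that of all such genes. Tgm2, a transglutaminase whose transcript shares 522 bases with Gm20412, rose from 172 ± 11 CPM in CON to 247 ± 11.4 CPM in T + E2 mice (SD, n = 3 each). Its log2 fold change was 0.52 (standard error 0.09, adjusted p = 0.00563 by edgeR). The median log2 fold change of the 9 genes was 0.20. Over all 64 genes of the wider lists, 43 were tested, 11 were called (8 higher and 3 lower) and 7 were DEGs (6 higher and 1 lower). Among the higher DEGs, Bco1, Rdh16, Adh7 and Hsd17b6 passed the filter only through the T + E2 mice. The counts by direction therefore partly reflect the filter. The share called was 25.6%, against 19.6% of all tested genes. Of all tested genes, 10.4% were called higher and 9.25% lower, and 7.64% were DEGs (4.27% higher and 3.38% lower). Without CON replicate 2 the called genes numbered 9 and without T + E2 replicate 2 they numbered 7. Adh1, Fabp5, Hsd17b6, Nrip1, Rdh16, Rxrg and Tgm2 were called with either mouse left out (adjusted p = 0.00119 to 0.0266 without the CON mouse and 0.00156 to 0.0428 without the T + E2 mouse, by edgeR).

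T + E2 replicate 3 differed from the other mice of its group at several of these genes. It was the highest of the 3 at Cyp26b1, Rarb, Dhrs3, Aldh1a3, Stra6, Rara and Rarg, and the lowest at Aldh1a1, Aldh1a2, Rdh10 and Crabp2. Relative to the mean CPM of the other T + E2 mice it stood at 2.47 for Cyp26b1, 2.12 for Rarb, 1.34 for Dhrs3 and 0.78 for Aldh1a2. Among the CON mice, replicate 1 was the highest at Cyp26b1, Rarb, Dhrs3, Aldh1a3 and Aldh1a2. Total counts of T + E2 replicate 3 were 14816146, the lowest of the 6 libraries by a small margin, and it had the lowest sum of the 3 T + E2 mice in 9 of 11 marker lists, the prostate secretion list being left out of this count, with 245 CPM of basal epithelium markers against 283 and 313. Their part in these differences was not tested.

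**Figure D4:**
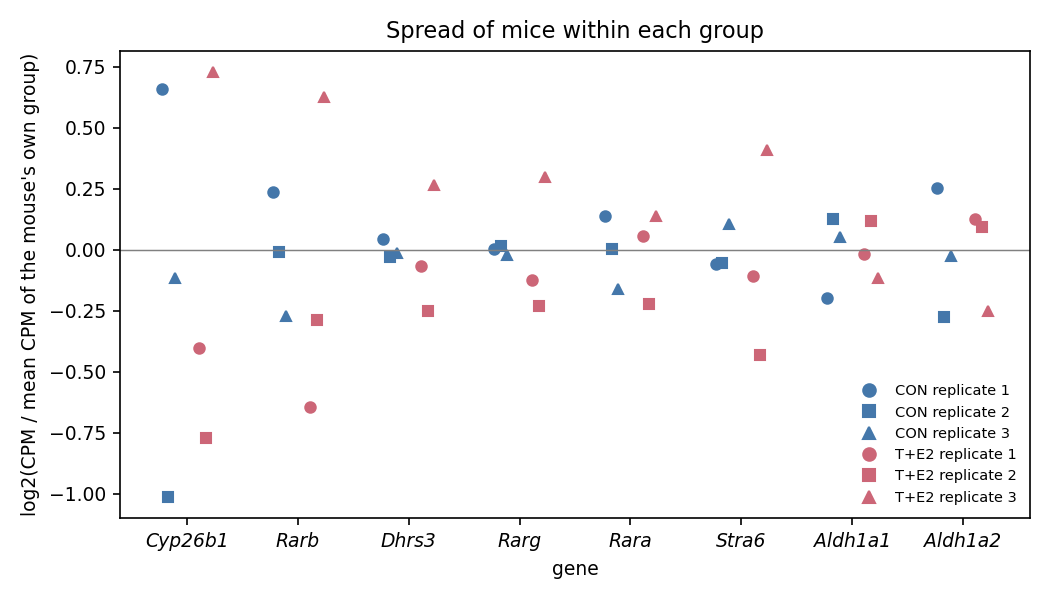
Log2 ratio of the CPM of each mouse to the mean CPM of its own group for 8 genes, so that differences between the groups are removed. T + E2 replicate 3 (red triangle) is above its group at Cyp26b1, Rarb, Dhrs3, Rarg, Rara and Stra6 and below it at Aldh1a1 and Aldh1a2, and the CON mice spread most at Cyp26b1.

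Markers of the cell types and neighbouring tissues that the prostate samples may hold were compared with the changes above. Summed fibroblast markers ranged from 1602 to 1730 CPM in the CON and from 1675 to 2030 CPM in the T + E2 group, with 0 of 6 genes called. Smooth muscle markers were lower in every T + E2 mouse (3580 to 3921 against 4085 to 5074 CPM), with 2 of 6 genes called lower. Basal epithelial markers had overlapping sums (155 to 257 CPM in the CON and 245 to 313 CPM in the T + E2 group), with 1 of 4 genes, Trp63, called higher. Endothelial markers were higher in every T + E2 mouse (142 to 169 against 99.5 to 140 CPM), with 1 of 5 genes, Vwf, called higher. Leukocyte markers (28.4 to 47.9 and 37.2 to 58.4 CPM) and adipocyte markers (62.8 to 331 and 42.9 to 93.9 CPM) overlapped, with 0 genes called. The part of these cell types in the changes of the members was not tested. Luminal epithelial markers overlapped (3706 to 4069 CPM in the CON and 4009 to 4141 CPM in the T + E2 group), with 2 of 6 genes called higher and 1 lower.

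Urothelial markers, like Aldh1a2, were higher in every T + E2 mouse than in every CON mouse. In CON replicates 1, 2 and 3 their sums were 422, 642 and 514 CPM, the reverse of the order of Aldh1a2. In T + E2 replicates 1, 2 and 3 they were 1701, 1585 and 1374 CPM, the same order as Aldh1a2. Their sum rose 2.95-fold, from 422 to 642 CPM in the CON mice to 1374 to 1701 CPM in the T + E2 mice, and all 3 tested genes of the 5 were called higher. Nearly all of the sum came from Upk1a and Upk1b. The more restricted Upk2 stood at 0.781 ± 0.146 CPM in the CON and 3.61 ± 1.22 CPM in the T + E2 group (SD, n = 3 each), and Upk3a had 0 counts in each CON mouse and 5, 99 and 3 in the T + E2 mice. Krt20 was too low to be tested and overlapped, at 0.194 ± 0.0596 CPM in the CON and 2.6 ± 4.08 CPM in the T + E2 group (SD, n = 3 each). Markers of epididymis and ductus deferens rose 2.01-fold in sum, from 31.6 to 37.5 CPM to 61.5 to 74 CPM, and 1 of 2 tested genes, Defb42, was called higher. Most of this rise came from Defb42 (8.74 ± 3.47 and 39.2 ± 10.1 CPM), while Adam28 overlapped (24.8 ± 1.09 and 28.7 ± 6.15 CPM, SD, n = 3 each). Crisp1 and Rnase10 were too low to be tested and had lower means with T + E2, and Lcn5, Lcn8 and Rnase9 were at 0 in every mouse. The rise of Aldh1a2 was 21.4-fold, and the part of these tissues in it was not tested.

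Mesothelium, a known site of Aldh1a2 expression, was represented by 6 genes, of which 0 of 4 tested were called. Their sum of 563 to 678 CPM in the CON and 655 to 731 CPM in the T + E2 group was mostly Krt19, which luminal cells share. Msln stood at 1.5 ± 0.59 and 1.15 ± 0.276 CPM and Wt1 at 2.03 ± 0.948 and 2.48 ± 0.65 CPM (SD, n = 3 each). Upk3b had a higher mean with T + E2, at 0.682 ± 0.599 and 3.9 ± 4.31 CPM, but its groups overlapped (adjusted p = 0.128 by edgeR). Lrrn4 (0.132 ± 0.174 and 0.554 ± 0.42 CPM) and Bnc1 (0.173 ± 0.0363 and 0.101 ± 0.176 CPM) overlapped and were too low to be tested. CON replicate 2, with the highest sum of seminal vesicle markers, had 7.62 CPM of Aldh1a2, the lowest of all 6 mice, and the part of that tissue in the Aldh1a2 values was not tested. Of the prostate secretion genes, Pbsn and Tgm4 were called lower and Msmb higher, and their part in the fall of Stra6 was not tested.

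**Figure D5:**
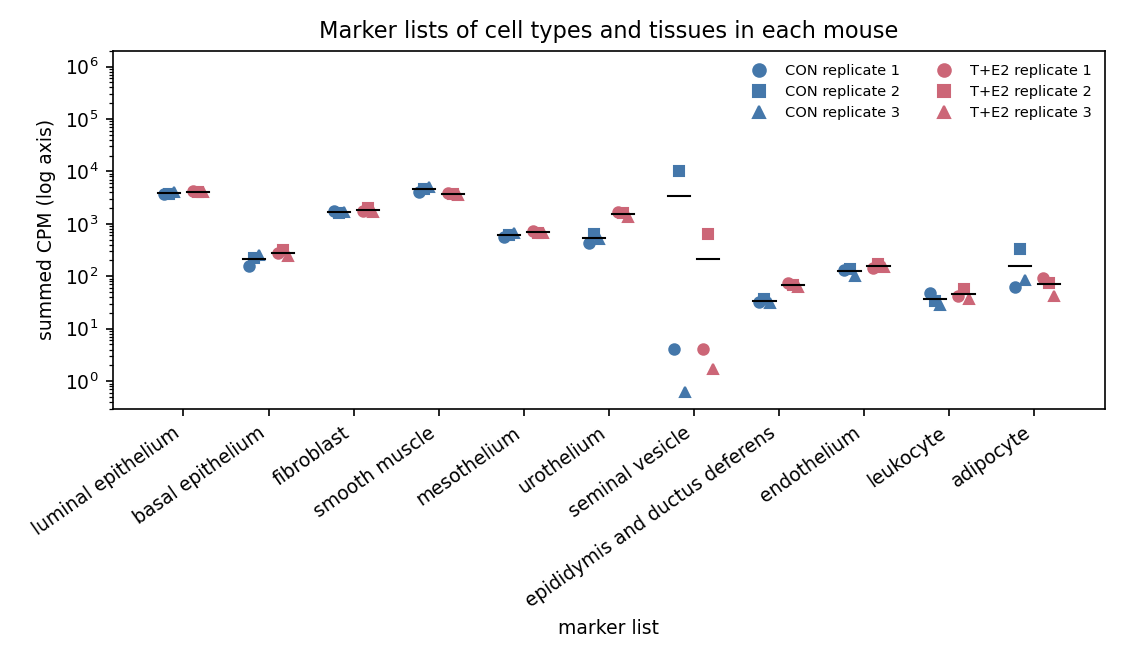
Summed CPM of 11 marker lists in each mouse on a log axis, with CON mice in blue, T + E2 mice in red and a line at each group mean. Urothelial markers rise from 422 to 642 up to 1374 to 1701 CPM, fibroblast markers overlap, and seminal vesicle markers are high in 1 CON mouse.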

How the data were processed

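RNA of prostate tissue from 6 mice (3 in each group, from the sample titles) was sequenced from TruSeq libraries. The authors deposited 1 table of whole-number read counts per gene, without normalization, and of FPKM values that equal the count divided by gene length and library total. TopHat, Bowtie2 and HTSeq are named in the submitters' processing notes, and the genome build and strand setting are not given in the sources used here. Gene coordinates are those of the table and lie on GRCm38, and strands and overlapping genes are from GENCODE M21. The paper's comparison used DESeq2.

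The deposited counts were analysed with edgeR 4.0.16 in R 4.3.3: filterByExpr (minimum count 10, minimum total 15), TMM scaling, glmQLFit and glmQLFTest, with Benjamini-Hochberg adjustment over all 15580 tested genes. A gene was called at an adjusted p under 0.05, and DEGs also had an absolute log2 fold change over 1. The edgeR p-values set each group difference against the variation between these mice, estimated with information shared over all tested genes. Alternatives were DESeq2 1.42.0, limma 3.58.1 on log2(FPKM + 0.1) and log2(FPKM + 1), other scalings, no filter, a replicate block and each mouse left out. Values within libraries were compared by exact permutation tests. The procedure was tested on simulated data. Similar transcripts were found with BLAST+ 2.17.0+. Promoter sequences are from RefSeq (GRCm38.p6). The members and lists were chosen with earlier results of these data known. Named genes were all members, all DEGs of the wider lists and 12 fixed genes, of which 1 is not reported here, and the other called genes of the lists were named after their values were seen. Of the marker lists, genes were named where a list moves with a member.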

Additional observations from a re-analysis of the deposited data

How the results depend on the processing

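Of the 104 log2 fold changes recomputed for the 8 tested members under 13 alternatives, 102 kept their direction and their side of the threshold. The exceptions were -0.18 (without CON replicate 2) and -0.12 (without T + E2 replicate 3) for Aldh1a3, which ranged from -0.18 to 0.24 with single mice left out. All alternatives called the same 3 members, and 2 of them as DEGs. All DEGs of the table numbered 1191, 561 with limma on log2(FPKM + 1), which compresses low values, and 972 to 1152 with single mice left out. The 7 DEGs of the wider lists fell to 2 with limma on log2(FPKM + 1), namely Adh1 and Fabp5, and numbered 5 to 8 with single mice left out, while the 11 called genes numbered 7 to 11. DESeq2 called 15 of the wider genes (8 as DEGs), and the fit with no filter and limma on log2(FPKM + 0.1) each called 13 (9 as DEGs). The difference in the Aldh1a1 share was -15.5 percentage points with Aldh1a7 in the sum and -27.9 to -25.9 with single mice left out. Deviations of mice with the same replicate number correlated at -0.054, 0.027 and 0.047, and no CON mouse correlated best with the T + E2 mouse of its own number, so the mice share only a number. With the replicate block there were 1013 DEGs, 3 called members (2 as DEGs), and 8 called genes of the wider lists, 5 of them DEGs. Depth limits Crabp2, Cyp26a1, Rdh7 and Sdr16c6, which were under the filter. Sdr16c6 was called with DESeq2 (adjusted p = 0.00712), and Sdr16c6 and Rdh7 were called with no filter and with limma on log2(FPKM + 0.1), where their adjusted p-values were 0.0436 and 0.037. The limma fits kept genes with at least 0.1 FPKM in 3 samples. Both genes reached this only through the T + E2 mice, so their direction in that fit was tied to the filter.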
